A study of Mus musculus with 6 samples.

Results

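The genes described here encode the ligands and receptors of the 4 classical families of axon guidance cues in the mouse: semaphorins with their neuropilin and plexin receptors, ephrins with their Eph receptors, Slits with their Robo receptors, and netrins with Dcc and the Unc5 receptors. They were taken by gene symbol, with earlier results of these data known. Of the 71 RefSeq genes with such a symbol 64 were measured, among 15302 named genes in all. They comprise 33 ligand genes and 29 receptor genes. The remaining 2 genes, Unc50 and Unc5cl, were caught by the spelling of their symbols and are not netrin receptors. The 7 genes not analysed here are Efna3, Epha10, Plxnb2, Robo2, Robo3, Sema3g and Unc5d.

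RNA came from mouse embryonic stem (ES) cells that were differentiated as monolayers for 4 days into neural progenitor cells, with 0.5 µM all-trans retinoic acid given on days 0 and 2, and sorted by FACS on day 4. The cells of 3 samples carried GFP in the Sox1 locus and a Sox3 transgene under the Nestin promoter (Sox1-GFP and Nestin-Sox3, called Sox3 cells here). Those of 3 control samples carried the Sox1-GFP allele alone (Sox1-GFP, called control cells), so the GFP allele, the retinoic acid and the sort were common to both groups. The Nestin promoter drives the transgene in progenitors, so over-expression is limited to cells in which that promoter is active. The labels call the samples biological replicates, and give neither the number of ES cell clones behind each genotype nor the cultures or sorts that samples shared.

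Guidance cues steer growing axons by attraction and repulsion, and many of them act earlier as well, on progenitor cells, on boundaries between cell groups and on migrating neurons, neural crest cells and blood vessels. Secreted class 3 semaphorins mostly bind a neuropilin that is joined to a plexin, while the membrane-bound semaphorins bind plexins directly. Ephrins are attached to the cell surface, ephrin-A ligands by a lipid anchor and ephrin-B ligands by a transmembrane segment, and they signal through Eph receptor tyrosine kinases on the neighbouring cell. Slits repel axons through Robo receptors, and netrins attract through Dcc or repel through Unc5 receptors.

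Few guidance genes differed between Sox3 cells and control cells. Of the 64 genes, 1 rose (Sema3e) and 1 fell (Sema4c) in limma's test at a Benjamini-Hochberg adjusted p under 0.05, which is 3.12% of them, against 3.94% of all named genes (1.27% higher and 2.67% lower). The signals of the groups did not overlap for 18 guidance genes, 9 higher and 9 lower in Sox3 cells, which is 28.1% against 31.3% of all named genes. At an unadjusted p under 0.05 there were 14, or 21.9%, against 23.8%. The median log2 difference over the guidance genes, Sox3 minus control, was 0.01, beside 0.00 over all named genes, and the median size of a difference regardless of sign was 0.08 for both. None of these shares stood above its background. The single families described below hold too few genes for their counts of calls to be set against 3.94%.

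**Figure D1:**
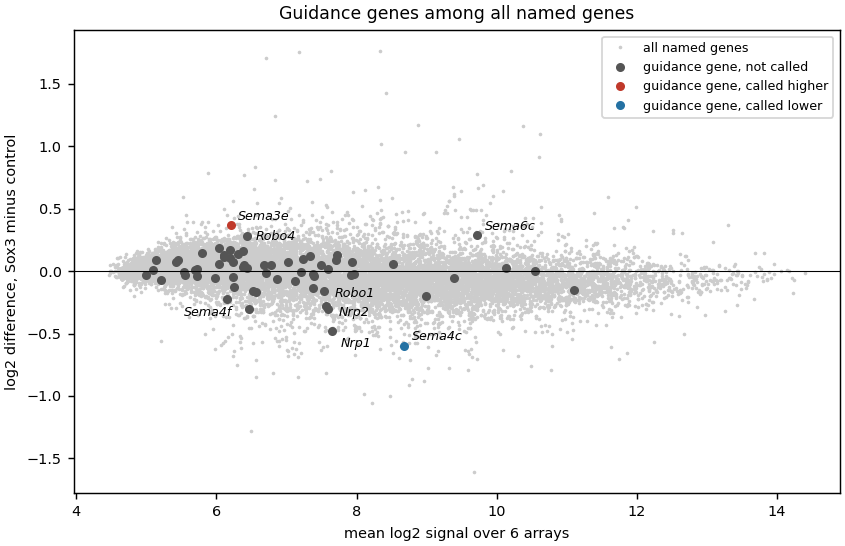
Each grey point is a named gene and each larger point a guidance gene, with the mean log2 signal over 6 arrays on the x axis and the log2 difference, Sox3 minus control, on the y axis. The guidance genes lie between -0.60 for Sema4c and 0.37 for Sema3e, within the spread of the other genes.

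The values are log2 array signals (RMA), so 1 unit is a doubling, and signals of different genes cannot be compared as amounts. Median signals of the 6 arrays were 6.85 to 6.87, and every pair of arrays correlated across probe sets at 0.9925 to 0.9986. The interquartile range of signals was 2.89, 2.98 and 2.97 on the Sox3 arrays, against 3.00, 3.02 and 3.17 on the control arrays. The spread thus differed between the groups without overlap. Fits after quantile normalisation, which equalises it, are given below. On the first principal component, with 59.2% of the variance, the Sox3 arrays lay at -15.2 to -7.91, control replicates 1 and 2 at 4.78 and 6.06, and control replicate 3 apart at 22.4. The transgene's own gene, Sox3, had signals of 9.20, 9.23 and 9.22 in Sox3 cells, against 7.59, 7.52 and 7.25 in control cells, as the labels have it. Of 10 progenitor markers, 1 was called higher, Sox3 itself, and 1 lower, Sox2 (limma adjusted p = 0.0241). Sox2 was at 11.59 ± 0.07 in Sox3 cells, against 11.96 ± 0.09 in control cells (mean ± SD, n = 3 each). The groups of Nes, Fabp7 and Pax6 did not overlap, with log2 differences of 0.14, 0.77 and -0.19, but none of these passed. Nes was at 8.15 ± 0.08 in Sox3 cells, against 8.02 ± 0.06 in control cells (mean ± SD, n = 3 each). The pluripotency markers Dppa5a, Zfp42 and Pou5f1 gave signals above 10 on every array in both groups. None of the 7 measured pluripotency markers was called. Tdgf1 and Esrrb, with differences of -0.46 and 0.26, had groups that did not overlap (limma adjusted p = 0.0517 and 0.054). In RNA from a cell population, fewer cells of a type and less RNA per cell cannot be told apart.

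The 250 bases before the annotated starts of the 2 called genes are shown because the factor that was over-expressed binds DNA. They come from RefSeq, build GRCm38.p6, written in the direction of the gene. For Sema4c, which has 2 annotated starts, the window of the upstream start is given.
Sema3e, chr5:14025026-14025275, plus strand: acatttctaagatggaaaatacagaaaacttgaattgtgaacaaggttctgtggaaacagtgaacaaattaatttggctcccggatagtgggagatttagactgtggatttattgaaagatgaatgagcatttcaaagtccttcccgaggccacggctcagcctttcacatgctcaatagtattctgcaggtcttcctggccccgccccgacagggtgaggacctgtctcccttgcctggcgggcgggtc
Sema4c, chr1:36558382-36558631, minus strand: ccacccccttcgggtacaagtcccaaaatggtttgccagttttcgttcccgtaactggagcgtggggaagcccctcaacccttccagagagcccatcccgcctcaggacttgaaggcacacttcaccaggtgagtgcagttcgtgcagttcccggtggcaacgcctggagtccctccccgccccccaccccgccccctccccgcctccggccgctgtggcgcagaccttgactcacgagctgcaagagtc
Capitals would mark matches to ACAAAG or ACAATG, 2 spellings of the site that Sox proteins are known to bind, on either strand. Neither window holds a match. At least 1 match was present in 19.4% of 67 windows of guidance genes and in 25.2% of 32817 windows of the same length before all annotated starts. The absence says only that these letters are not in these windows.

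Sema3e, a secreted class 3 semaphorin known to repel axons and vessels through Plexin-D1 without needing a neuropilin, was the guidance gene that rose. Its log2 signals were 6.46, 6.51 and 6.22 in Sox3 cells, against 6.03, 6.05 and 5.99 in control cells. The groups did not overlap, and Sox3 replicate 3 was the nearest to the control arrays. Sema3e was 1.29-fold higher in Sox3 cells (a log2 difference of 0.37 ± 0.08 SE, 95% interval 0.19 to 0.55, limma adjusted p = 0.0435). The call was kept when Sox3 replicate 3 was left out (adjusted p = 0.0159) but was lost when any other array was left out, with adjusted p from 0.0865 to 0.154. It was also lost after quantile normalisation (adjusted p = 0.0541) and cyclic loess (adjusted p = 0.057).

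Plxnd1, which encodes the Plexin-D1 receptor of Sema3e, did not pass the test. It had signals of 5.93, 5.98 and 5.93 in Sox3 cells, against 6.06, 6.04 and 5.92 in control cells, and the groups overlapped. The 95% interval of its log2 difference ran from -0.18 to 0.07.

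The other 5 class 3 semaphorins did not pass, with log2 differences from -0.16 to 0.11. Sema3c, a class 3 semaphorin with attractive as well as repulsive roles, had signals of 7.46, 7.49 and 7.39 in Sox3 cells, against 7.60, 7.66 and 7.57 in control cells. These groups did not overlap, but its difference of -0.16 ± 0.05 (SE) had a limma adjusted p of 0.114. The classical repellents Sema3a and Sema3f gave differences of -0.01 each, with 95% intervals of -0.11 to 0.09 and -0.17 to 0.15. Sema3b and Sema3d, at 0.11 and 0.07, had groups that overlapped.

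Sema4c, a membrane-bound semaphorin that signals through Plexin-B2 in the developing brain, was the guidance gene that fell. Its log2 signals were 8.08, 8.55 and 8.52 in Sox3 cells, against 8.98, 8.88 and 9.09 in control cells. The groups did not overlap, and Sox3 replicate 1 lay 0.44 below the next lowest array. Sema4c was 1.51-fold lower in Sox3 cells (a log2 difference of -0.60 ± 0.12 SE, 95% interval -0.88 to -0.32, limma adjusted p = 0.0422). The call was lost when any 1 of the 6 arrays was left out, with adjusted p from 0.0535 without Sox3 replicate 1 to 0.0956 without control replicate 3. Those fits also called fewer of all probe sets, 74 to 189 higher and 94 to 286 lower, against 255 and 536 with all 6 arrays. The difference of Sema4c stayed between -0.68 and -0.45 in them. With all 6 arrays the call was also lost under median centring (adjusted p = 0.051), and it was kept after quantile normalisation (adjusted p = 0.0415) and cyclic loess (adjusted p = 0.0404). Its receptor gene Plxnb2 was not analysed here. Plxnb1, a related receptor that binds Sema4d, was at 9.37 ± 0.01 in Sox3 cells, against 9.42 ± 0.14 in control cells (mean ± SD, n = 3 each).

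Sema4f and Sema4b, also of class 4, lay just outside the threshold. Sema4f is a transmembrane semaphorin of neurons and oligodendrocyte precursors. Sema4f had signals of 6.25, 6.43 and 6.25 in Sox3 cells, against 6.59, 6.53 and 6.71 in control cells, a log2 difference of -0.30 ± 0.07 (SE, limma adjusted p = 0.0567). Sema4b had 6.07, 6.10 and 5.97 in Sox3 cells, against 6.25, 6.24 and 6.31 in control cells, a difference of -0.22 ± 0.05 (SE, limma adjusted p = 0.0631). Neither gene had overlapping groups. The remaining class 4 genes were Sema4a at 0.05, Sema4d at 0.01 and Sema4g at -0.04, each with groups that overlapped. Class 4 as a whole thus had 1 called gene of 6, beside 3.94% of all named genes, and 1 gene of 6 is too few to set against that share. Its median log2 difference was -0.13, beside 0.00 over all named genes. Over all 13 membrane semaphorins of classes 4 to 7 the median was 0.01, with 7 positive and 6 negative differences.

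The class 6 genes all had positive differences, but none of the 4 passed. Class 6 semaphorins are transmembrane proteins that bind class A plexins. Sema6c had signals of 9.99, 9.87 and 9.75 in Sox3 cells, against 9.78, 9.73 and 9.23 in control cells. The groups overlapped, and control replicate 3 was 0.50 below the next lowest array (difference 0.29 ± 0.14 SE, limma adjusted p = 0.266). Sema6a, at 0.17 ± 0.07, and Sema6d, at 0.13 ± 0.06 (SE), had groups that did not overlap, with limma adjusted p of 0.183 and 0.243. Sema6b was at 0.08 ± 0.07 (SE).

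Sema5b, a class 5 semaphorin with thrombospondin repeats, had 6.43, 6.48 and 6.41 in Sox3 cells, against 6.62, 6.61 and 6.57 in control cells. Its difference of -0.16 ± 0.05 (SE) did not pass (limma adjusted p = 0.0938), but did after quantile normalisation (-0.20, adjusted p = 0.0429) and cyclic loess (-0.20, adjusted p = 0.0459). Under quantile normalisation the called guidance genes were therefore 0 higher and 2 lower, Sema4c and Sema5b, rather than 1 and 1. Sema5a was at -0.03 ± 0.06 (SE). Sema7a, the lipid-anchored semaphorin that can act through integrins, was at 5.86 ± 0.04 in Sox3 cells, against 5.71 ± 0.09 in control cells (mean ± SD, n = 3 each, limma adjusted p = 0.191).

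**Figure D2:**
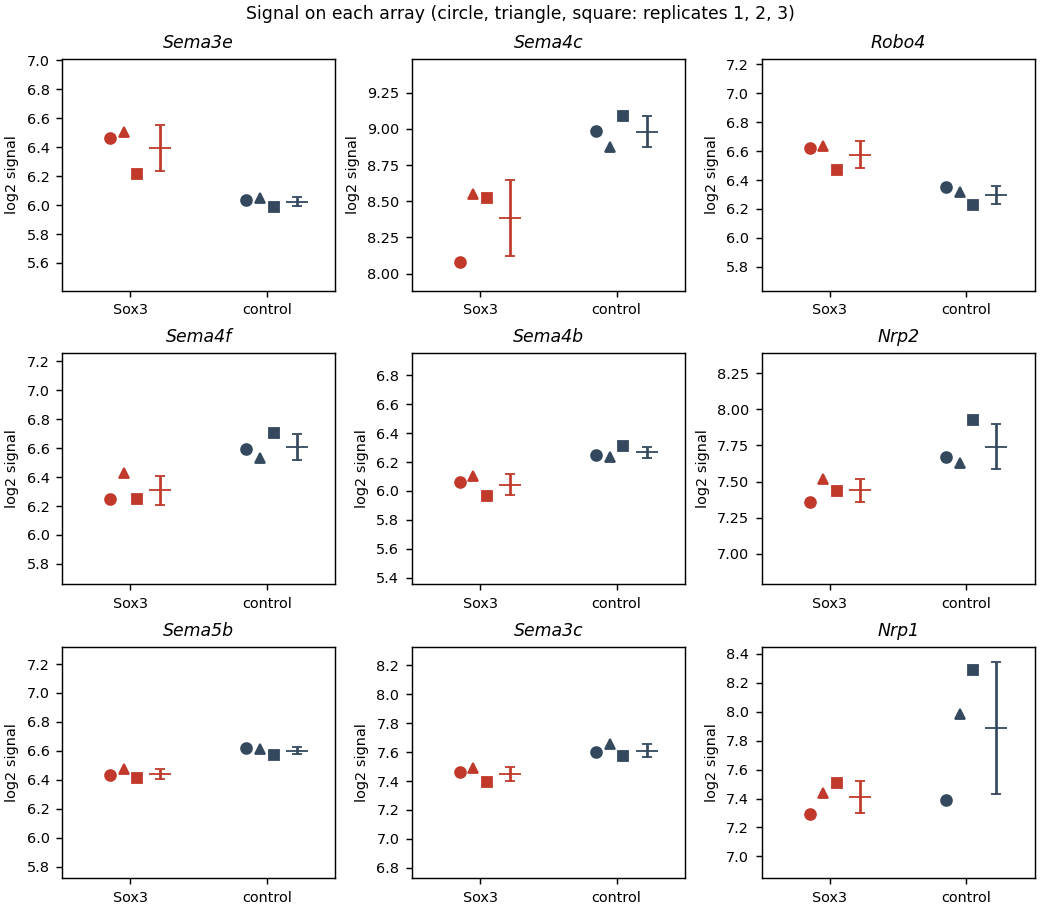
Log2 signal on each array for 9 guidance genes, Sox3 cells left in red and control cells right in grey, with replicates 1, 2 and 3 as circle, triangle and square, and bars for the mean and SD (n = 3). The y axes all span the same range. Sema3e and Robo4 lie higher and Sema4c, Sema4f, Sema4b, Nrp2, Sema5b and Sema3c lower in Sox3 cells without overlap, while the Nrp1 groups overlap.

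Both neuropilin genes had lower mean signals in Sox3 cells, and neither passed the test. Neuropilins are co-receptors for class 3 semaphorins and for VEGF. Nrp1 had 7.29, 7.44 and 7.51 in Sox3 cells, against 7.39, 7.99 and 8.29 in control cells. The control arrays spread over 0.89, and control replicate 1 lay within the Sox3 group. The log2 difference was -0.48 ± 0.19 (SE, 95% interval -0.92 to -0.03, limma adjusted p = 0.198). Without control replicate 1 it was -0.72 and passed (adjusted p = 0.028), and without control replicate 3 it was -0.28 (adjusted p = 0.409).

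Nrp2 had 7.36, 7.52 and 7.44 in Sox3 cells, against 7.67, 7.63 and 7.92 in control cells, with no overlap. Its difference was -0.30 ± 0.08 (SE, limma adjusted p = 0.0857). The 6 probe sets of Nrp2 held 2 distinct profiles, each matched to different transcripts. The profile of 4 probe sets is the one given above. That of the other 2 was at 6.52 ± 0.04 in Sox3 cells, against 6.45 ± 0.15 in control cells (mean ± SD, n = 3 each), a difference of 0.06 ± 0.08 (SE, 95% interval -0.11 to 0.24, limma adjusted p = 0.639), so its direction was not resolved. The mean of all 6 gave -0.18 (adjusted p = 0.139).

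None of the 8 plexin genes passed, too few to set against the 3.94% of all named genes. Their log2 differences ran from -0.20 to 0.16. Plexins are the transmembrane receptors that carry semaphorin signals into the cell. Plxna2, a class A plexin, had 8.88, 8.91 and 8.88 in Sox3 cells, against 8.88, 9.11 and 9.27 in control cells (-0.20 ± 0.09 SE, limma adjusted p = 0.233). As for Nrp1, control replicate 1 was at the level of the Sox3 arrays while control replicate 3 was the highest. Plxna4 had 6.53, 6.42 and 6.43 in Sox3 cells, against 6.34, 6.37 and 6.20 in control cells, without overlap (0.16 ± 0.06 SE, limma adjusted p = 0.175). Plxna1, Plxna3, Plxnb1, Plxnc1 and Plxnd1 all had differences between -0.06 and 0.05, and Plxnb3 was at 0.14 ± 0.07 (SE).

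**Figure D3:**
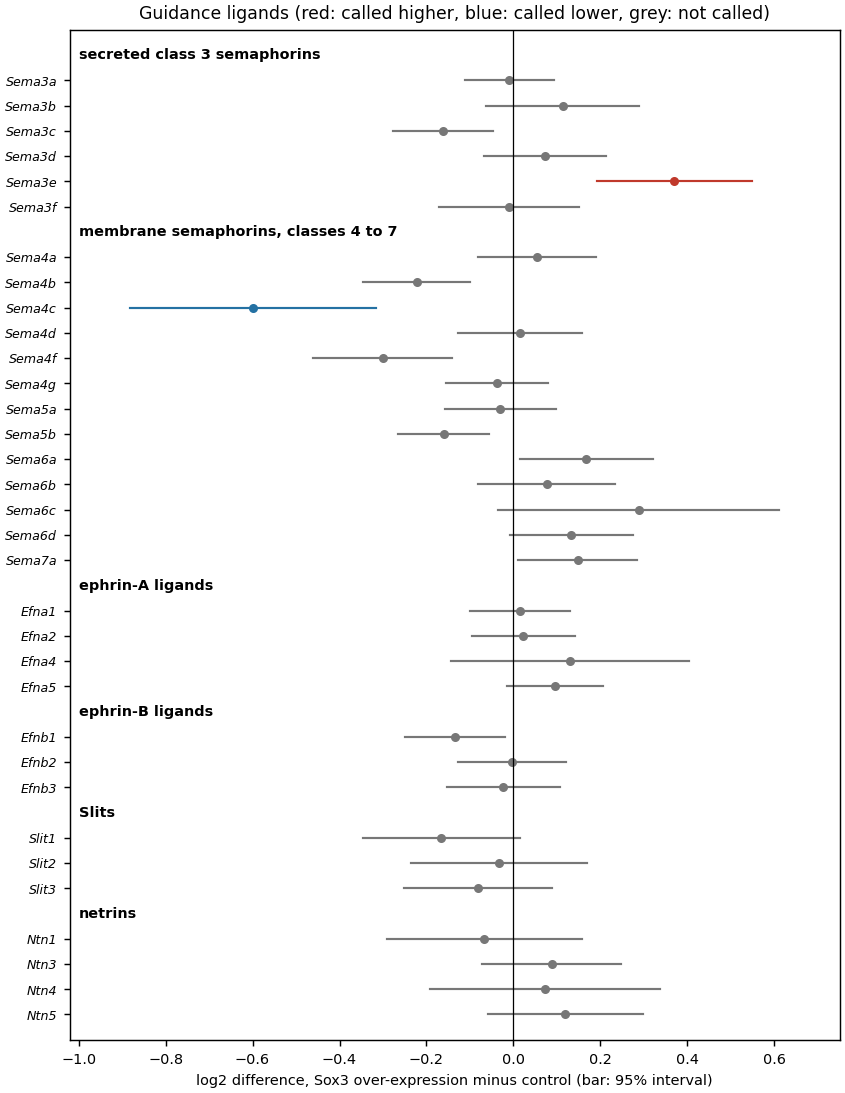
Log2 difference (Sox3 minus control, x axis) with its unadjusted 95% interval for each of the 33 ligand genes, grouped by family. Sema3e is the ligand called higher and Sema4c the one called lower, and the intervals of most other ligands cross 0.

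The Eph system showed no called gene among 7 ephrins and 13 Eph receptors, too few genes to set against the 3.94% of all named genes. The 4 ephrin-A genes had differences from 0.02 to 0.13. Efna5, which maps retinal axons along with Efna2, had 7.34, 7.27 and 7.25 in Sox3 cells, against 7.22, 7.20 and 7.17 in control cells, without overlap (0.09 ± 0.05 SE, limma adjusted p = 0.279). Efna4 was at 8.07 on Sox3 replicate 3 and at 7.64 and 7.67 on the other Sox3 arrays, against 7.54 to 7.81 in control cells.

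Among the ephrin-B ligands, Efnb1, an X-linked gene known for sorting cells at tissue boundaries, had 7.37, 7.29 and 7.29 in Sox3 cells, against 7.42, 7.43 and 7.50 in control cells. The groups did not overlap, yet the difference of -0.13 ± 0.05 (SE) did not pass (limma adjusted p = 0.163). Efnb2, a marker of arteries that also guides neural crest cells, and Efnb3, a midline repellent, had differences of -0.003 and -0.02, with 95% intervals of -0.13 to 0.12 and -0.15 to 0.11.

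The 8 EphA receptors had differences from -0.12 to 0.19 and the 5 EphB receptors from -0.02 to 0.09. Epha2 was at 10.54 ± 0.05 in Sox3 cells, against 10.54 ± 0.03 in control cells, and Ephb3 at 10.14 ± 0.09 in Sox3 cells, against 10.12 ± 0.05 in control cells (mean ± SD, n = 3 each). Epha4, a receptor with broad ligand binding that patterns hindbrain segments, was at 7.98 ± 0.09 in Sox3 cells, against 7.90 ± 0.11 in control cells. Epha8, at 6.20, 6.07 and 6.12 in Sox3 cells against 6.11, 5.96 and 5.76 in control cells, had the smallest p of the EphA genes (0.19 ± 0.09 SE, limma adjusted p = 0.24). Ephb4, the venous receptor of Efnb2, had the smallest p of the EphB genes, with 7.71, 7.74 and 7.79 in Sox3 cells, against 7.55, 7.76 and 7.66 in control cells (limma adjusted p = 0.406). Epha7 had 2 probe sets of distinct profiles, with differences of -0.12 ± 0.08 and 0.02 ± 0.05 (SE). The unadjusted intervals of all 13 receptors excluded a 1.5-fold change in either direction. However, 3 of the 8 EphA receptors, Epha3, Epha5 and Epha6, were in the dimmest 25% of genes. RMA is known to compress the changes of dim genes, so their narrow intervals do not show that these genes were unchanged.

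Robo4, a Robo family member known from endothelial cells, lay just outside the threshold. It had 6.62, 6.64 and 6.47 in Sox3 cells, against 6.35, 6.31 and 6.22 in control cells, with no overlap. The difference of 0.28 ± 0.06 (SE) had a limma adjusted p of 0.0517, the smallest among the guidance genes that were not called. Over the other settings its adjusted p ran from 0.0101 to 0.17, and it passed in 4 of them. These were the filter at the 25th percentile (0.0428), array weights (0.0101), a replicate block (0.0416) and the mean of probe sets per gene (0.0457). It passed in 0 of the 6 fits that left out an array. Of 10 endothelial markers none was called, and their median log2 difference was 0.10. Their summed linear signal was 1100 to 1236 in Sox3 cells and 1021 to 1138 in control cells. The part of endothelial cells in the Robo4 and Sema3e values was not tested.

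Robo1, an axonal receptor of Slits, had 7.49, 7.67 and 7.11 in Sox3 cells, against 7.55, 7.68 and 7.87 in control cells. The groups overlapped, and Sox3 replicate 3 was 0.38 below the next lowest array (-0.28 ± 0.14 SE, limma adjusted p = 0.273). The Slit ligands had differences of -0.17 for Slit1, -0.03 for Slit2 and -0.08 for Slit3, none of which passed. Slit1 had the smallest p of them, with 6.57, 6.49 and 6.40 in Sox3 cells, against 6.81, 6.57 and 6.58 in control cells (limma adjusted p = 0.253), where the closest arrays of the groups were apart by less than 0.01.

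Neither the netrins nor their receptors included a called gene, and they too are few beside the 3.94% of all named genes. The 4 netrin genes ran from -0.07 to 0.12. Ntn1, the floor plate attractant, had 6.93, 6.84 and 6.71 in Sox3 cells, against 7.09, 6.85 and 6.73 in control cells. Ntn5 had the smallest p of the netrins, with 7.50, 7.29 and 7.37 in Sox3 cells, against 7.30, 7.37 and 7.14 in control cells (0.12 ± 0.08 SE, limma adjusted p = 0.381). The groups overlapped for all 4.

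Dcc, the attractive netrin receptor, was at 5.71 ± 0.03 in Sox3 cells, against 5.75 ± 0.03 in control cells (mean ± SD, n = 3 each), in the dimmest 25% of genes. The repulsive receptor genes Unc5a, Unc5b and Unc5c had differences of 0.03, 0.06 and -0.05. Unc5b had the smallest p of this family, with 8.49, 8.51 and 8.64 in Sox3 cells, against 8.46, 8.52 and 8.49 in control cells (limma adjusted p = 0.543). The 95% intervals of the 4 netrin receptors all lay between -0.18 and 0.19.

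Of the genes caught by name only, Unc50 was at 11.03 ± 0.05 in Sox3 cells, against 11.18 ± 0.04 in control cells (mean ± SD, n = 3 each, limma adjusted p = 0.135). Unc5cl was at 6.41 ± 0.03 in Sox3 cells, against 6.37 ± 0.10 in control cells (mean ± SD, n = 3 each, limma adjusted p = 0.664).

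**Figure D4:**
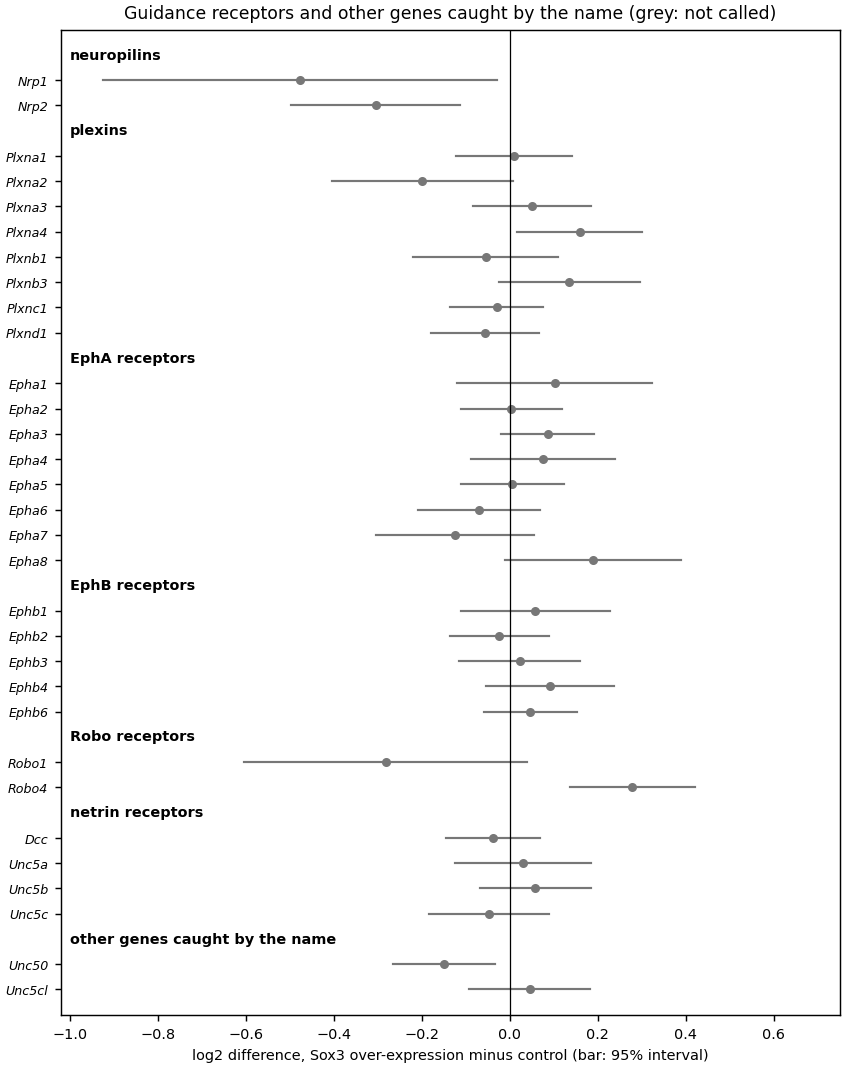
Log2 difference (Sox3 minus control, x axis) with its unadjusted 95% interval for the 29 receptor genes and for Unc50 and Unc5cl. No receptor was called, the Nrp1 interval is the widest, and those of the netrin receptors lie between -0.18 and 0.19.

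How small a change the arrays could resolve differed between genes. The standard errors of the 64 log2 differences were 0.04 to 0.19, with a median of 0.06. For 60 of the 64 genes the unadjusted 95% interval excluded a change of 1.5-fold in either direction, which is 93.8% against 97.2% of all named genes. The exceptions were Sema4c, Nrp1, Robo1 and Sema6c. The share of guidance genes in the dimmest 25% of all named genes was 18.8% (12 of 64), and RMA is known to compress the changes of dim genes.

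Other genes of guidance signalling were taken as a list of cytoplasmic effectors, further cues, co-receptors and shedding enzymes. Of 89 measured genes 2 rose and 3 fell, which is 5.62% against 3.94% of all named genes, and their median log2 difference was 0.02. The groups did not overlap for 27 of them, or 30.3% against 31.3%. Part of the list, Crmp1 among it, had appeared in earlier results of these data. The called share of the list therefore cannot be read as an excess over all named genes.

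The genes that rose encode an adhesion molecule and a chemokine. Nrcam, an L1-family cell adhesion molecule that forms receptor complexes with neuropilins, had 7.23, 7.39 and 6.99 in Sox3 cells, against 6.55, 6.46 and 6.43 in control cells. Its signal was 1.65-fold higher (a difference of 0.73 ± 0.09 SE, limma adjusted p = 0.00921), and it kept its call when any 1 array was left out. Cxcl12, the chemokine that attracts cells bearing Cxcr4, had 8.04, 8.09 and 7.99 in Sox3 cells, against 6.96, 7.26 and 7.47 in control cells. It was 1.75-fold higher (0.81 ± 0.11 SE, limma adjusted p = 0.0118), and its call was lost without Sox3 replicate 1 or 2 (adjusted p = 0.0581 and 0.0576). Neither gene had overlapping groups.

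The genes that fell were Crmp1, Gpc1 and Farp1. Crmp1, a collapsin response mediator that carries class 3 semaphorin signals to the cytoskeleton, had 9.69, 9.74 and 9.88 in Sox3 cells, against 10.29, 10.18 and 10.31 in control cells (-0.49 ± 0.06 SE, limma adjusted p = 0.00937; 0.0501 without Sox3 replicate 2). The other collapsin response mediator genes of the list were not called. Dpysl3 and Dpysl5 had differences of 0.46 and 0.12 without overlap of the groups (limma adjusted p = 0.0613 and 0.211). Dpysl2 and Dpysl4, at 0.01 and 0.04, had groups that overlapped, so their direction was not resolved. Gpc1, a heparan sulphate proteoglycan that can bind Slit, had 7.48, 7.46 and 7.38 in Sox3 cells, against 7.87, 7.75 and 8.05 in control cells (-0.45 ± 0.08 SE, limma adjusted p = 0.0244). Its call was lost without any 1 Sox3 array or control replicate 1, with adjusted p from 0.0602 to 0.0815. Farp1, a FERM-domain exchange factor acting downstream of class A plexins and Sema6a, had 9.73, 9.80 and 9.78 in Sox3 cells, against 9.997, 10.06 and 10.03 in control cells (-0.26 ± 0.05 SE, limma adjusted p = 0.0295). It was lost without any 1 of the 6 arrays (adjusted p 0.0507 to 0.111), after quantile normalisation (adjusted p = 0.0766) and after cyclic loess (adjusted p = 0.0849).

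Markers of other cell types were set beside these genes. The summed linear signal of 12 markers of postmitotic neurons was 1854 to 1998 in Sox3 cells and 2186 to 2402 in control cells, with 1 marker called lower, Nefm, 0 higher, and 6 in the dimmest 25% of genes. Tubb3, the neuronal tubulin, was at 7.98 ± 0.12 in Sox3 cells, against 8.49 ± 0.23 in control cells (mean ± SD, n = 3 each, limma adjusted p = 0.0507). Of 9 endoderm markers 4 were called lower, Cubn, Afp, Foxa2 and Ttr, and 0 higher, and their summed signal overlapped, at 4569 to 5538 in Sox3 cells and 4599 to 5927 in control cells. Gata6 and Gata4, also endoderm markers, had positive differences of 0.35 and 0.26 that did not pass (limma adjusted p = 0.148 and 0.151). The list of 9 mesoderm and mesenchyme markers had a summed signal of 2435 to 2670 in Sox3 cells and 2115 to 2236 in control cells, without overlap. Of these, the smooth muscle genes Tagln and Acta2 were called higher, with differences of 1.43 ± 0.12 and 1.17 ± 0.15 (SE), and Meox1 and Col1a2 were called lower, at -0.64 ± 0.09 and -0.40 ± 0.05 (SE). The 5 measured neural crest markers summed to 379 to 394 in Sox3 cells and 348 to 361 in control cells, without overlap, with 1 called higher, Foxd3 (0.36 ± 0.08 SE, limma adjusted p = 0.0446), and 0 lower. A sum of linear signals is weighted to the brightest genes of a list, so it need not follow most of the markers. The median log2 difference was -0.02 over the neuron markers and -0.29 over the endoderm markers. It was 0.08 over the mesoderm and mesenchyme markers and 0.08 over the neural crest markers. The part of these cell types in the values of Sema3e, Robo4, Nrcam, Cxcl12, Sema4c, Nrp1, Nrp2 and Crmp1 was not tested.

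**Figure D5:**
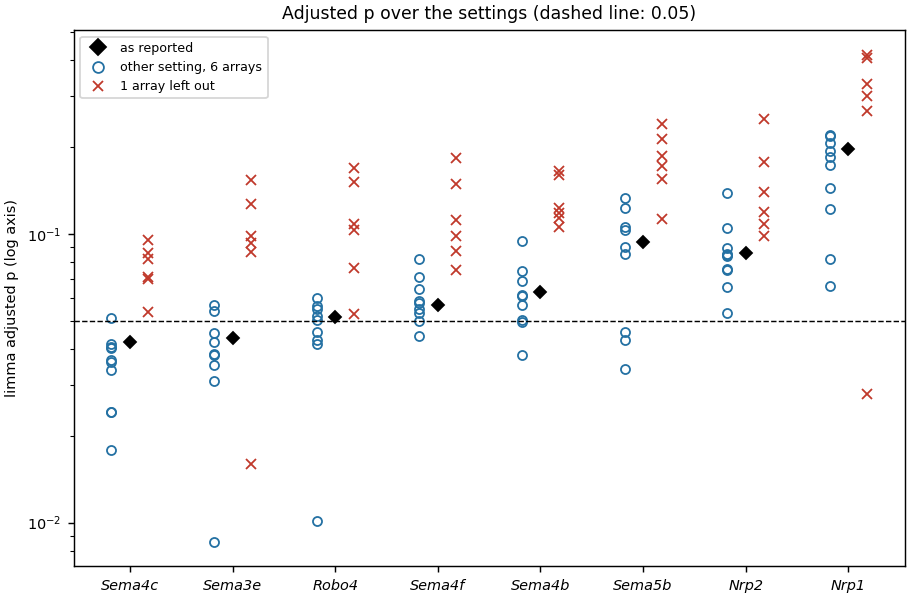
Limma adjusted p on a log axis for 8 guidance genes as reported (black diamonds), under the other settings with all 6 arrays (blue circles) and with 1 array left out (red crosses), with 0.05 as a dashed line. No guidance gene stays below the line throughout, and every cross of Sema4c lies above it.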

How the data were processed

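RNA was labelled with biotin and hybridised to Affymetrix arrays, 1 per sample, per the labels' protocols. The deposited values are log2 signals computed by the authors: the submitters' processing notes name RMA and Affymetrix Power Tools. RMA corrects background, quantile-normalises arrays and summarises probes, yet the spread of the deposited arrays still differed between the groups. Tool versions and the array design were not given in the sources used here. Signals spanned 4.41 to 14.6 without detection calls, and the precision is limited by 3 arrays per group.

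Of 21940 probe sets, 64 array controls were left out. RefSeq accessions were matched without versions to RefSeq genes (GRCm38.p6), which named 17123 of 21876 probe sets and 15302 genes. Each gene is its probe set of highest mean over 6 arrays.

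The test was limma 3.58.1 under R 4.3.3 (lmFit, eBayes, two-sided, no block, no filter), with Benjamini-Hochberg adjustment over 21876 probe sets and a threshold of 0.05. The fit was tested on simulated data. Where nothing says that replicates came from separate cultures, p-values measure the spread between these samples, which may be technical. The motif search was added after values were seen. Genes were chosen by symbol, and the lists of effectors (98 entries, 89 measured) and cell type markers from general knowledge. Members and lists were chosen with earlier results of these data known. Array values are given for called genes, for the smallest p of each family without a call, and for others chosen after their values were seen.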

Additional observations from a re-analysis of the deposited data

How the results depend on the processing

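Both calls among the guidance genes lay close to the threshold. The fits varied the normalisation, the filter, the variance model, the weights, the block, the probe set rule and the threshold, and left out each array. Sema4c kept its sign under all of them. Sema3e kept its sign in every fit that held it, and the filter at the median removed it. Called higher and lower were 0 and 2 guidance genes after quantile normalisation, 0 and 3 after cyclic loess, 1 and 0 with median centring, 2 and 2 with the filter at the 25th percentile (53 genes tested), 0 and 1 with the filter at the median (27 genes), 2 and 4 with array weights, 2 and 1 with the mean of all probe sets per gene, and 0 and 0 at an adjusted p threshold of 0.01. With 1 array left out they were 0 to 1 higher and 0 to 1 lower. Calls over all probe sets fell in those fits too, from 255 higher and 536 lower to 74 to 189 higher and 94 to 286 lower. Effector genes called higher and lower were 4 and 3 after quantile normalisation, 4 and 2 after cyclic loess, 2 and 5 with the filter at the median, 7 and 8 with array weights and 1 and 1 at 0.01, and 1 to 4 and 0 to 3 with 1 array left out. Over all probe sets, 382 were higher and 498 lower after quantile normalisation, 365 and 455 after cyclic loess, and 230 and 400 with median centring. They were 300 and 707 with the filter at the 25th percentile, 262 and 773 with the filter at the median, and 67 and 83 at 0.01. With the mean of all probe sets per gene, 226 genes were called higher and 496 lower. Array weights gave the highest counts over all probe sets too, 817 higher and 1280 lower against 255 and 536 in the main fit. They were 0.295 for control replicate 3 and 3.05 for control replicate 2, and the cause of the higher counts was not tested. The median log2 difference of the guidance genes stayed between -0.02 and 0.02. In all, 8 guidance genes were called in at least 1 fit and 0 in all 6 fits that left out an array.

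With the replicate number as a block, 2 guidance genes were called higher and 1 lower, and 4 effector genes higher and 5 lower. The labels do not say that the numbers pair the samples, and across probe sets the residuals of arrays 1, 2 and 3 of both groups had correlations of 0.29, -0.21 and 0.09.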
